A study of Mus musculus with 12 samples.

Results

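The genes described here were 10 imprinted growth genes of the mouse, H19, Igf2, Dlk1, Meg3, Peg3, Mest, Plagl1, Cdkn1c, Grb10 and Igf2r, chosen by gene symbol from the 54447 rows of the count table. Each symbol matched 1 row. The RNA-seq libraries came from fibroblasts that the labels describe as mouse embryonic fibroblasts and that the study's methods give as the NIH3T3 line. The cells had been infected with a lentivirus that carries the doxycycline (dox) responsive activator and a dox-inducible promoter, and had been selected with puromycin, so that all 4 groups carried the vector and a construct. In N-VEGF cells the promoter drove N-VEGF, the N-terminal arm that is cleaved from the long form of VEGF-A, and in NLS-N-VEGF cells it drove the same arm fused to the nuclear localization sequence (NLS) of Cas9. Both populations were compared without and with dox, with 3 libraries in each of the 4 groups, and no library of uninfected cells or of an empty vector was analysed here. Each population was a selected pool, and nothing in the labels says that the libraries of a group came from separate cultures, so p-values measure the spread between these libraries, which may be technical. The library names end in 1 of 2 suffixes, written here as a and b, and each group held a library 1 and a library 2 of suffix a and a library 2 of suffix b. What the suffix stands for is not said in the labels, although it reads like a date.

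An imprinted gene is transcribed mainly from the copy inherited from 1 parent, because the parental copies carry different DNA methylation at a control region of the cluster. Several paternally expressed genes, such as Igf2, Dlk1, Peg3 and Mest, are known to favour growth of the embryo, and several maternally expressed genes, such as H19, Cdkn1c, Grb10 and Igf2r, are known to restrain it. Many of them are high in embryonic tissue and are turned down after birth, while cell lines keep them to very different extents. The counts do not separate the parental copies, so they bear on the summed level of each gene and not on its imprint.

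The check of the construct followed the labels. The row of the construct insert held 5 to 12 counts in the 6 libraries without dox, 35 to 173 counts in the 3 NLS-N-VEGF libraries with dox and 121 to 268 counts in the 3 N-VEGF libraries with dox. With dox the library of suffix b held the most in both populations. It held 173 counts against 48 and 35 in NLS-N-VEGF cells, and 268 against 121 and 149 in N-VEGF cells. With the groups in the model the insert was higher in suffix b by 1.40 on the log2 scale (SE 0.189, edgeR adjusted p = 2.4e-05). Total counts lay between 13549331 and 18982127 per library. All 10 fibroblast markers examined had a mean of at least 1 CPM (counts per 1000000 counts of the library). Their summed level was 11850 to 15030 CPM. The sum was 0.88 to 1.88 CPM for 5 epithelial, 2.39 to 4.49 CPM for 5 endothelial and 30.7 to 40.6 CPM for 5 immune markers. Of the immune markers 3 had a mean of at least 1 CPM, Cd68, Cd14 and Csf1r. The other immune markers, Ptprc and Adgre1, had 15 counts and 1 count over all libraries. Of 5 skeletal muscle markers 0 had a mean of at least 1 CPM, and their summed level was 0.431 to 1.74 CPM. Among these, Myod1 and Myog were at 0 counts in every library. Library 1 of the N-VEGF cells without dox stood apart with 19976 genes detected, against 20947 to 22889 in the other 11 libraries, and the values that it moved most are given below with and without it.

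The 10 genes fell into a very wide range of levels. With CPM rescaled by TMM, the trimmed mean of M-values, the average over all 12 libraries was 1119 for Dlk1, 531 for Grb10, 223 for Igf2r, 44.5 for Meg3, 43.1 for Peg3, 23.1 for Plagl1 and 0.895 for Mest, while Cdkn1c, Igf2 and H19 were at or near 0. These 7 genes passed the filter on low counts, which kept 13608 genes for testing, and the other 3 did not. Per kilobase of annotated exon the order became Dlk1 at 198 CPM, Grb10 at 58.5, Igf2r at 24.0, Peg3 at 3.23, Plagl1 at 2.96, Meg3 at 2.46 and Mest at 0.227. The length used was the union of all annotated exons of a gene, 18.1 kilobases for Meg3 and 5.66 for Dlk1. It can exceed that of the transcripts present, so the order depends on the annotation. On this scale Dlk1 ranked 201 among the tested genes, Grb10 740 and Igf2r 2061, while Peg3, Plagl1 and Meg3 overlapped in range over the libraries, at 2.01 to 3.92, 2.11 to 3.93 and 1.22 to 4.2 CPM per kilobase.

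**Figure D1:**
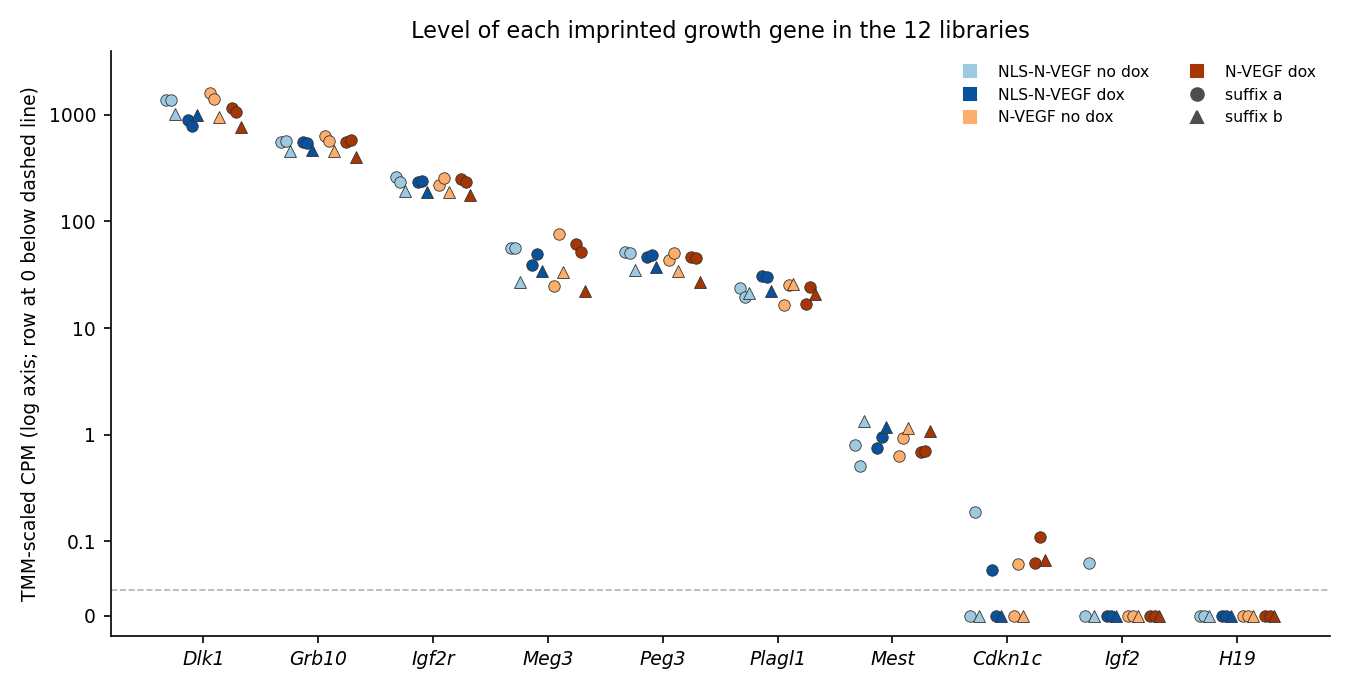
TMM-scaled CPM (log axis, with 0 drawn on a row of its own below the dashed line) of the 10 imprinted growth genes, 1 point per library, coloured by group and shaped by label suffix. Dlk1 lies between 764 and 1615 CPM, Mest between 0.503 and 1.36 CPM, and H19 is at 0 in all 12 libraries.

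H19 and Igf2 are neighbours on mouse chromosome 7 that share enhancers and a control region bound by CTCF, the maternal copy giving the noncoding RNA H19 and the paternal copy giving the growth factor Igf2. H19 (chr7:142575529-142578143, minus strand, GRCm38) had 0 counts in all 12 libraries, which allows a level of up to 0.0153 CPM over the summed libraries if 3 counts are taken as the floor. Igf2 (chr7:142650766-142666816, minus strand) had 1 count, in library 2 of suffix a of the NLS-N-VEGF cells without dox. Of the annotated exon bases of Igf2, 62.8% are shared on the same strand with the read-through gene Gm49394, which also had 0 counts, and how the counting treated reads on shared bases was not stated, so the count of Igf2 is a lower limit. Their neighbours Ins2, the insulin gene beside Igf2, and Nctc1, which lies beyond H19, had 0 counts as well. Floors cover counting error only.

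Cdkn1c (chr7:143458339-143461050, minus strand), the cyclin-dependent kinase inhibitor p57 that slows the cell cycle, lies in the neighbouring Kcnq1ot1 cluster. It had 9 counts over all libraries, 6 of them at 0 and none above 3 counts, with 4 counts in the 6 libraries without and 5 in the 6 libraries with dox. At this depth no difference between groups was detectable. The kit did not mark strand, and 30.7% of its exon bases lie opposite Gm44732, which had 0 counts. Phlda2, a maternally expressed placental growth restrainer of the same cluster, had 1 count in all. The long noncoding RNA of the cluster, Kcnq1ot1, was by contrast at 18.6 to 43.1 CPM, and Cd81, a tetraspanin at the cluster's edge, was at 184 to 230 CPM.

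Of the genes that passed the filter 5 were lower in the libraries of suffix b (edgeR adjusted p under 0.05), as were 23.5% of all tested genes. The 250 bases before the RefSeq start (GRCm38.p6) of these 5 genes are printed for that reason, 5′ to 3′ on the strand of the gene, in lower case. Capitals mark matches to GGGGCCCC, the sequence bound by the zinc finger protein that Plagl1 encodes, or TGCCGC, the sequence that ZFP57 binds when methylated, searched on both strands. The core CCGCGNGG of the CTCF motif was searched too and had no match in these windows.
Dlk1, chr12:109452573-109452822, plus strand: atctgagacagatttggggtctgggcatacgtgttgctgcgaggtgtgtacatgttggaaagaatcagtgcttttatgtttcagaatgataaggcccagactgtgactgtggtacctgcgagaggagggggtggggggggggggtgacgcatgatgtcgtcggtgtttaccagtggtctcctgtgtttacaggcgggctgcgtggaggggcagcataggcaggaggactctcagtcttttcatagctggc
Meg3, chr12:109540746-109540995, plus strand: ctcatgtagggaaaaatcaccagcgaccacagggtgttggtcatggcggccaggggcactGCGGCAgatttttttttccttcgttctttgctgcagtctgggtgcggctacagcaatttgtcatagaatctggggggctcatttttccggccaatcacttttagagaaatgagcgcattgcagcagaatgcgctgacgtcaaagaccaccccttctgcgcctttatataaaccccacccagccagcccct
Peg3, chr7:6730420-6730669, minus strand: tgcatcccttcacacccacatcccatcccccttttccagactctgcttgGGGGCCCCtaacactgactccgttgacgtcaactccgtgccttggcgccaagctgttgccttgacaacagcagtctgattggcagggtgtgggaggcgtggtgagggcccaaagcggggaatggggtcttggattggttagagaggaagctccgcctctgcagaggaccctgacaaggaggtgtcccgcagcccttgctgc
Grb10, chr11:12037421-12037670, minus strand: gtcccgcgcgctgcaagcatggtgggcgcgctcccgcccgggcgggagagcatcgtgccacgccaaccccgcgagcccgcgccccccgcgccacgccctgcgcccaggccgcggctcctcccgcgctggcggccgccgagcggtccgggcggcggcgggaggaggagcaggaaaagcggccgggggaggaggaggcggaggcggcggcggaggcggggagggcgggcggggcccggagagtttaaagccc
Igf2r, chr17:12769707-12769956, minus strand: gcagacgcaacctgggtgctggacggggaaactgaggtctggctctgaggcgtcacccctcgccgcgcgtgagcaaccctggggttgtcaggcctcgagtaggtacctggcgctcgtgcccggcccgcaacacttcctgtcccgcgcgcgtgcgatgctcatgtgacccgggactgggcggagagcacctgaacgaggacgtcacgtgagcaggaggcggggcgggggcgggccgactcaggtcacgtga

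The windows differed in their content of CpG, the dinucleotide that carries DNA methylation. The window of Grb10 held 40 CpG at 81.2% GC and that of Igf2r held 27 at 69.2% GC, while Meg3 held 10 and Dlk1 and Peg3 held 8 each, against a median of 6 over 32851 RefSeq windows of 250 bases. GGGGCCCC was found once in the window of Peg3, and 0.889% of all windows hold it. TGCCGC was found once in that of Meg3, on the opposite strand, and 8.68% of all windows hold it, while 5.07% hold CCGCGNGG. Windows of tested genes that were not lower, which are not printed, held TGCCGC too, with 2 matches for Mest and 1 for Plagl1. A match is a description of these letters and no evidence of binding. Meg3 and Grb10 have a further RefSeq start each, which is not printed.

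Dlk1 (chr12:109452823-109463336, plus strand) encodes a transmembrane protein of the Notch ligand family that marks preadipocytes and restrains their differentiation. It was the most abundant of the 10 genes and was lower with dox in all 6 pairs of same-numbered libraries. Library 1 and library 2 of suffix a and library 2 of suffix b of the NLS-N-VEGF cells held 1391, 1368 and 1010 CPM without dox, and 891, 791 and 998 CPM under dox. The groups did not overlap in these cells, but the pair of suffix b lay within 0.02 of equality on the log2 scale. Its library with dox held 173 counts of the construct insert, against 48 and 35 in those of suffix a. A link between insert and Dlk1 level was not tested.

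In N-VEGF cells Dlk1 stood at 1615, 1398 and 964 CPM before and at 1166, 1067 and 764 CPM after the addition of dox, in the same order. Here the groups overlapped, because the libraries of suffix b were the lowest in each, whereas within each pair the library with dox was lower. As log2 ratios the 6 pairs gave -0.64, -0.79 and -0.02 in NLS-N-VEGF cells and -0.47, -0.39 and -0.34 in N-VEGF cells. Dlk1 was therefore lower with dox within every pair, with 1 pair close to no difference, as 2.96% of all tested genes were lower in all 6 pairs and 2.73% were higher in all 6. Among 10 fibroblast markers 2 were also lower in all 6 pairs, the growth factor receptors Pdgfra (log2 ratios -0.86 to -0.19) and Pdgfrb (-0.31 to -0.03), and 0 were higher. The imprinted proteoglycan gene Dcn (-0.98 to -0.30) was lower in all 6 too. Higher in all 6 pairs among the listed genes were the imprinted gene Slc38a4 (0.01 to 0.21), Zfp57 (0.04 to 1.07) and Igf2bp2 (0.01 to 0.14). All of these genes are named after their values were seen.

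The test over all genes did not call Dlk1. The log2 fold change with dox was -0.49 (SE 0.203, 3 libraries against 3, edgeR adjusted p = 1) in NLS-N-VEGF cells and -0.41 (SE 0.203, edgeR adjusted p = 1) in N-VEGF cells. With library number and suffix together as a block, which takes out the suffix, the values were -0.46 (SE 0.137, edgeR adjusted p = 0.309) and -0.40 (SE 0.136, edgeR adjusted p = 0.695). The difference of the effects was -0.08 (SE 0.287, edgeR adjusted p = 1). The value in N-VEGF cells rested on single libraries: it was -0.24 (SE 0.212, edgeR adjusted p = 1) without library 1 without dox, which stood apart and held the highest Dlk1 level, and -0.61 without library 2 of suffix b without dox. Within suffix a alone, with 2 libraries a group, Dlk1 was called in NLS-N-VEGF cells at -0.72 (SE 0.105, edgeR adjusted p = 0.0119) and was -0.44 (SE 0.104, edgeR adjusted p = 0.288) in N-VEGF cells. Of 13387 genes tested there, 109 were called in NLS-N-VEGF cells and 16 in N-VEGF cells. Suffix b has 1 library a group and gives no test of its own.

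The mean of the effects of both populations, added after these values were seen, was -0.45 (SE 0.144, edgeR adjusted p = 1), and -0.43 (SE 0.0965, edgeR adjusted p = 0.0575) with the block. Within suffix a this mean effect was called at -0.58 (edgeR adjusted p = 0.00468), where 135 of 13387 tested genes were called. With no filter on low counts the value was again -0.45 and was called (edgeR adjusted p = 0.00019). That setting called 77 of 31229 genes, against 8 of 13608 with the filter, so the call depended on the filter. Without library 1 of the N-VEGF cells without dox the mean effect on Dlk1 was -0.37 (SE 0.142, edgeR adjusted p = 1). With the block the mean effect was called for 1 of the 10 fibroblast markers, Pdgfra (-0.49, SE 0.0765, edgeR adjusted p = 0.00419), and for Dcn (-0.54, SE 0.0875, edgeR adjusted p = 0.00578), and 5 of the 10 markers had p under 0.05. Over all tested genes 0.566% were called for the mean effect with the block, and 1266 of 13608 had p under 0.05. Without the block 0 of the 10 markers were called and 1 had p under 0.05. The summed marker level was 13020 to 13710 CPM without and 11850 to 13880 CPM under dox for NLS-N-VEGF, and 12660 to 15030 CPM without and 12240 to 13170 CPM under dox for N-VEGF. The part of these markers in the change of Dlk1 was not tested. Because both populations carry a construct that dox turns on, dox itself and the expressed protein cannot be told apart in these data. In bulk RNA, fewer cells with the transcript and less transcript per cell cannot be told apart either.

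**Figure D2:**
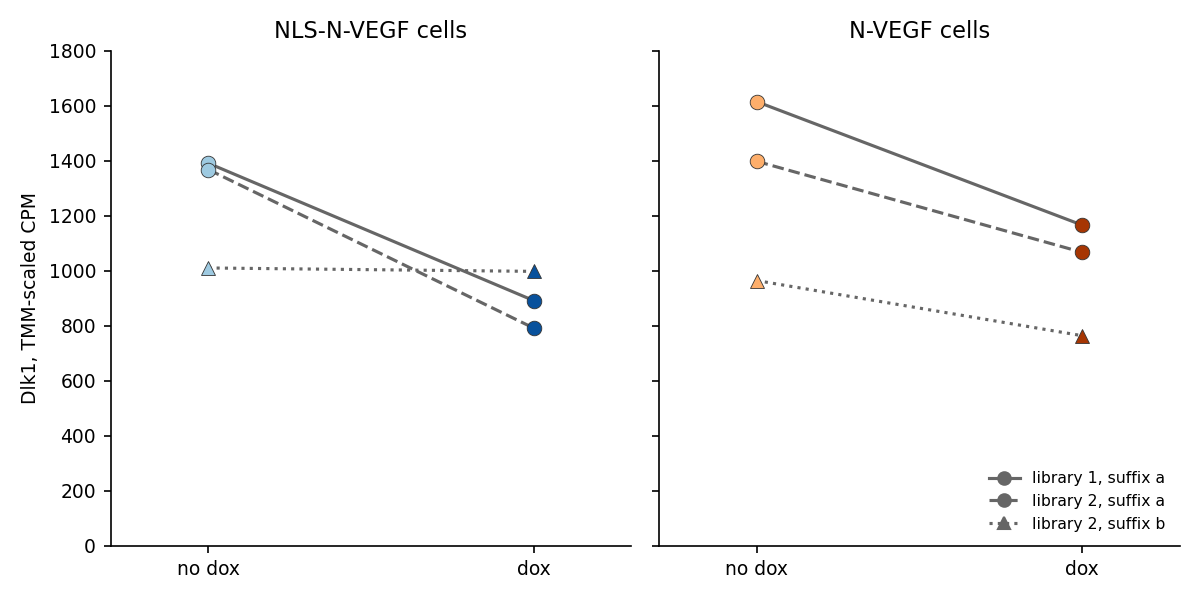
TMM-scaled CPM of Dlk1 without and with dox in NLS-N-VEGF cells (left) and N-VEGF cells (right), with lines joining libraries of the same number and suffix. The line of suffix b in NLS-N-VEGF cells runs from 1010 to 998 CPM, while the other 5 lines fall by 0.34 to 0.79 on the log2 scale.

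None of the other 6 tested genes was called with dox in either population. In NLS-N-VEGF cells 0 of the 7 tested genes were called and 1, Dlk1, had p under 0.05, against 0.022% of all tested genes called, and with the block 0 were called and 2 (Dlk1 and Plagl1) had p under 0.05, against 0.125% called. In N-VEGF cells 0 were called and 0 had p under 0.05 against 0.0367%, and with the block 0 were called and 1, Dlk1, had p under 0.05 against 0.11%. For the mean effect 0 were called against 0.0588%, and 0 with the block against 0.566%. DESeq2 called 0 of the 7 in each of these comparisons too. The median log2 fold change of the 7 was -0.04 in NLS-N-VEGF cells and -0.12 in N-VEGF cells, against 0.00 over all tested genes in both. Background shares this low mean that a count of 0 among 7 genes says little about them as a group. The fit without the block did not call even the construct insert in NLS-N-VEGF cells, at 3.31 (SE 0.666, edgeR adjusted p = 0.557). With the block the insert was called there at 3.19 (SE 0.33, edgeR adjusted p = 9.3e-05). A gene not called without the block is therefore not shown to be unchanged.

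Plagl1 (chr10:13060504-13131694, plus strand), a zinc finger transcription factor that can arrest the cell cycle and that binds control regions of other imprinted genes, had its highest levels in the NLS-N-VEGF cells with dox. There it stood at 30.7 and 30.1 CPM in libraries 1 and 2 of suffix a and at 22.3 CPM in library 2 of suffix b. The same libraries without dox held 23.5, 19.7 and 21.6 CPM. The libraries of suffix a with dox lay above the other 10 libraries, and the library of suffix b with dox overlapped with those without dox. That library of suffix b held the most construct insert of the group, 173 counts against 48 and 35. A link between insert and Plagl1 level was not tested.

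In N-VEGF cells Plagl1 was at 16.5, 25.6 and 25.8 CPM without dox, and adding dox gave 16.9, 24.2 and 20.8 CPM, so that the groups overlapped widely. The log2 fold change with dox was 0.36 (SE 0.189, edgeR adjusted p = 1) in NLS-N-VEGF cells and -0.13 (SE 0.19, edgeR adjusted p = 1) in N-VEGF cells. Their difference was 0.49 (SE 0.268, edgeR adjusted p = 1), and also 0.49 (edgeR adjusted p = 1) with the block. Between the populations with dox, Plagl1 differed by 0.42 (SE 0.19, edgeR adjusted p = 1). These values did not pass the test over all genes. Library 1 of the N-VEGF cells without dox, which stood apart, held the lowest Plagl1 level, and without it the change in N-VEGF cells was -0.32 (SE 0.169, edgeR adjusted p = 1) and the difference 0.68 (SE 0.227, edgeR adjusted p = 1). Without library 1 of the N-VEGF cells with dox the change there was -0.009.

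None of the 7 genes was called between the populations by that test, which does not show that they were equal. With dox 0 of 7 were called, as were 0 of 7 without dox and 0 of 7 for the difference of the dox effects, against 0% of all tested genes in each of these 3 comparisons. At p under 0.05 there were 1, 0 and 0 of the 7 genes, and 160, 82 and 116 of all tested genes, and DESeq2 called 0 genes in each. The log2 fold changes of NLS-N-VEGF over N-VEGF cells ran from -0.08 (Dlk1) to 0.11 (Peg3) without dox and from -0.16 (Dlk1) to 0.42 (Plagl1) with dox. Without library 1 of the N-VEGF cells without dox, the comparison without dox ran from -0.25 (Plagl1) to 0.12 (Peg3), and Dlk1 turned from -0.08 to 0.09.

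With the group in the model, 6 of 7 tested genes were called between suffix b (4 libraries) and suffix a (8 libraries), 5 of them lower and 1 higher. The suffix moved much of the transcriptome, since edgeR called 45.6% of all tested genes, 22.2% higher and 23.5% lower. DESeq2 called 4 of the 7 genes, and 5586 of the 17848 genes that it tested. Leaving out 1 library at a time gave 4 to 6 called genes, with 4 when library 2 of suffix b of the NLS-N-VEGF cells without dox or of the N-VEGF cells with dox was left out. Suffix is crossed with the groups, 1 library of suffix b in each, so each dox comparison had the same suffixes on both sides.

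**Figure D3:**
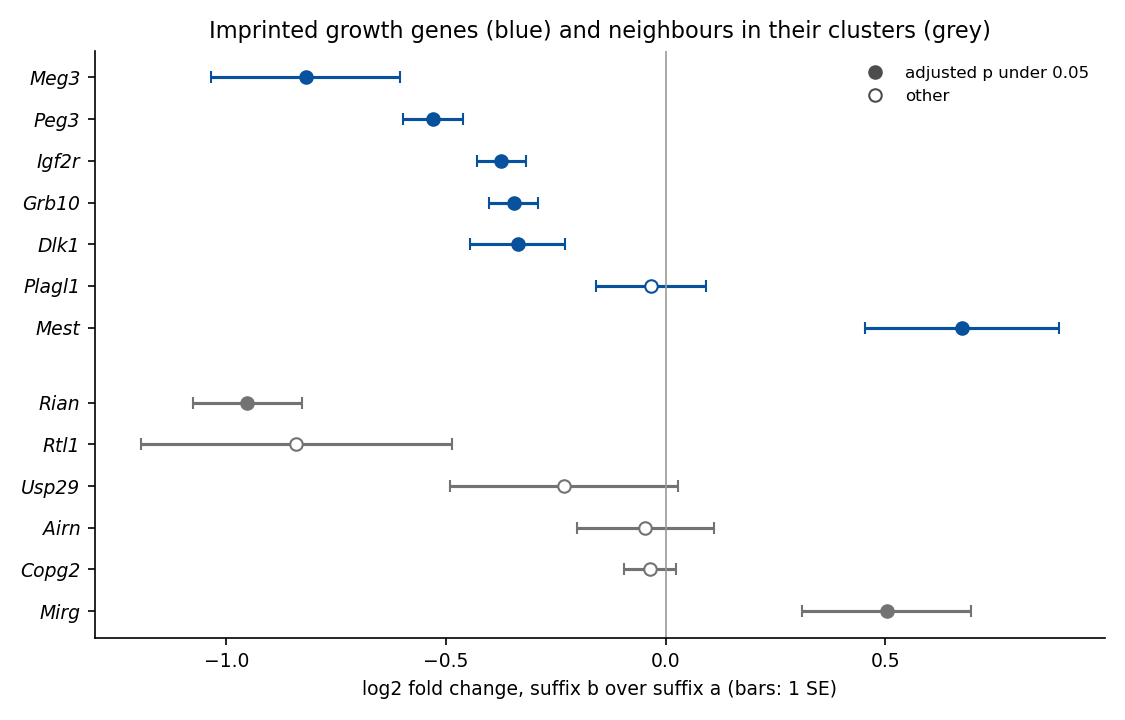
log2 fold change (1 SE as bars) of suffix b over suffix a for the 7 tested imprinted growth genes (blue) and 6 neighbours in their clusters (grey), filled where the edgeR adjusted p was under 0.05. Meg3, Peg3, Igf2r, Grb10 and Dlk1 lie between -0.82 and -0.34, Plagl1 is at -0.03 and Mest at 0.67.

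Meg3 (chr12:109541001-109571726, plus strand), the maternally expressed long noncoding RNA of the Dlk1-Dio3 cluster, had the widest spread. In NLS-N-VEGF cells it held 56.3, 56.5 and 27.3 CPM without dox, and 39.5, 49.8 and 34.4 CPM under dox, in the order library 1 and library 2 of suffix a and library 2 of suffix b. In N-VEGF cells the values were 24.8, 76.0 and 33.3 CPM without dox, and 62.0, 51.5 and 22.1 CPM under dox. The library of suffix b was the lowest of its group in 3 of 4 groups, and the exception was the N-VEGF group without dox, where library 1 was lower still.

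The log2 fold change of Meg3 with suffix b was -0.82 (SE 0.215, edgeR adjusted p = 0.00541). Without library 1 of the N-VEGF cells without dox, which stood apart, it was -0.97 (SE 0.11, edgeR adjusted p = 7.1e-07). The dox effect on Meg3 in N-VEGF cells was 0.02 with that library and -0.27 without it (SE 0.454, edgeR adjusted p = 1). In that library other long noncoding RNAs of imprinted clusters were low as well. Rian, the noncoding RNA that follows Meg3 in the cluster, was at 61.9 CPM there, against 81.6 to 113.5 CPM in the other 7 libraries of suffix a. Airn, which is transcribed antisense to Igf2r and silences it on the paternal copy, was at 3.21 CPM against 4.89 to 6.56 CPM in the other 11 libraries, and Kcnq1ot1 was at 18.6 CPM against 26.5 to 43.1 CPM. The library therefore held the lowest value of Airn and of Kcnq1ot1 among the 12, and the lowest of Meg3 and Rian within suffix a.

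**Figure D4:**
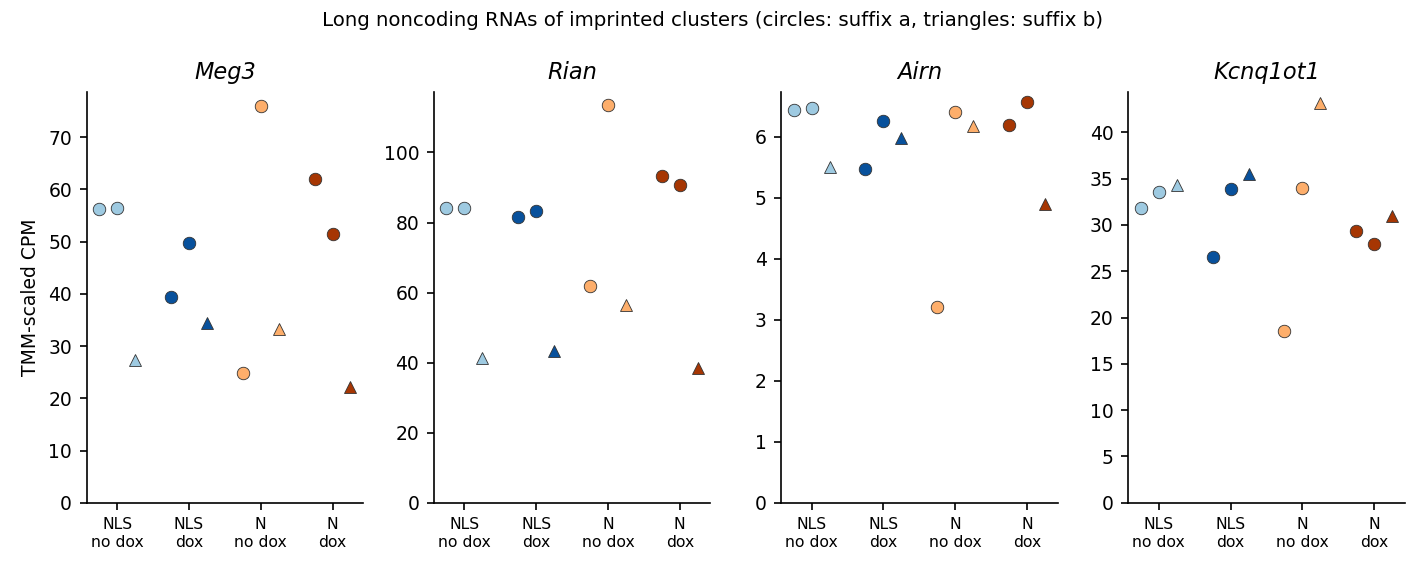
TMM-scaled CPM of 4 long noncoding RNAs of imprinted clusters in each library, by group, with circles for suffix a and triangles for suffix b. Library 1 of the N-VEGF cells without dox (the first point of the N-VEGF group without dox) is low in all 4 panels, at 24.8, 61.9, 3.21 and 18.6 CPM.

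Across the cluster on chromosome 12 the genes did not move as a block with the suffix. Rian fell with suffix b (log2 fold change -0.95, SE 0.124, edgeR adjusted p = 1.8e-05), as did Meg3 and, by less, Dlk1. Mirg, the noncoding RNA that carries a microRNA cluster farther along, was higher (0.50, SE 0.192, edgeR adjusted p = 0.0421), a call that DESeq2 did not make (adjusted p = 0.0608). Rtl1, a paternally expressed gene of retrotransposon origin, was at -0.84 (SE 0.354, edgeR adjusted p = 0.0631) with 4 to 25 counts a library, and Dio3, the deiodinase at the far end, had 2 counts in all. Without library 1 of the N-VEGF cells without dox, Rtl1 passed the test at -0.99 (SE 0.33, edgeR adjusted p = 0.0173). By its mean Rian stood at 3.98 CPM per kilobase of all annotated exons, above Meg3 at 2.46, Mirg at 0.508 and Rtl1 at 0.112, an order that depends on the annotation.

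Dlk1 itself was at -0.34 with suffix b (SE 0.108, edgeR adjusted p = 0.018). Within groups, its log2 ratio of the suffix b library over the mean of the suffix a libraries was -0.45 and -0.64 in NLS-N-VEGF and N-VEGF cells without dox and -0.55 in N-VEGF cells with dox, but 0.25 in NLS-N-VEGF cells with dox. The difference was no longer called by DESeq2 (adjusted p = 0.053) or without library 2 of suffix b of the NLS-N-VEGF cells without dox (-0.31, edgeR adjusted p = 0.0805), the N-VEGF cells without dox (-0.24, 0.112) or the N-VEGF cells with dox (-0.27, 0.109). Leaving out that library in NLS-N-VEGF cells under dox gave -0.55 (edgeR adjusted p = 4.4e-05). Dlk1 and Meg3 had a Pearson correlation of 0.35 in log2 CPM over the 12 libraries, and of 0.72 over 11 without library 1 of the N-VEGF cells without dox, whereas Meg3 and Rian had 0.89 and 0.94. Libraries share depth, group and suffix, so these are descriptions.

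**Figure D5:**
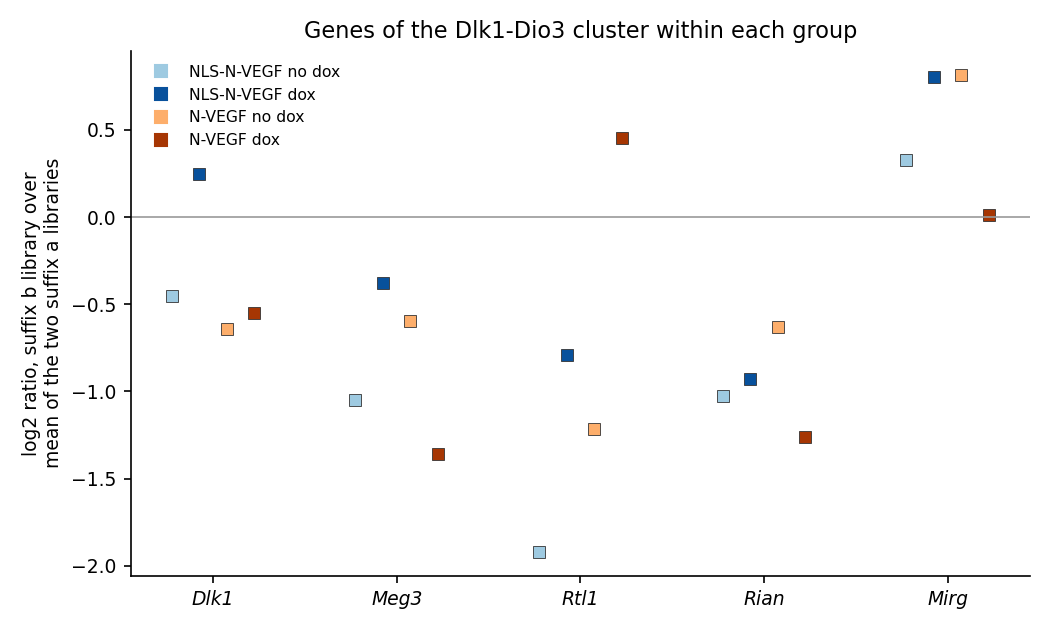
log2 ratio of the library of suffix b over the mean of the libraries of suffix a in each group, for 5 genes of the Dlk1-Dio3 cluster. Meg3 and Rian lie below 0 in all 4 groups, Mirg lies above 0 in all 4 (0.01 to 0.82), and Dlk1 lies below 0 in 3 and at 0.25 in NLS-N-VEGF cells with dox.

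Peg3 (chr7:6703892-6730431, minus strand), a paternally expressed zinc finger gene linked to growth and maternal behaviour, was evenly expressed among groups and lower with suffix b. The 8 libraries of suffix a ran from 43.4 to 52.3 CPM with a median of 47.4, and the 4 libraries of suffix b held 34.9, 37.2, 34.2 and 26.8 CPM in NLS-N-VEGF cells, first without and then with dox, and in N-VEGF cells likewise. The suffixes did not overlap, and suffix b lay at -0.53 on the log2 scale (SE 0.0691, edgeR adjusted p = 1.8e-05). Its divergent neighbour Usp29 was at -0.23 (SE 0.259, edgeR adjusted p = 0.481) at a mean of 1.51 CPM.

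Grb10 (chr11:11930508-12038683, minus strand) encodes an adaptor that binds the insulin and IGF1 receptors and dampens their signal. It held 545 to 636 CPM with a median of 567 in suffix a, and 461, 473, 462 and 404 CPM in the libraries of suffix b in the same order of groups. The suffixes again did not overlap, and suffix b lay at -0.35 on the log2 scale (SE 0.0561, edgeR adjusted p = 0.00013). With dox Grb10 was at -0.01 (SE 0.153) in NLS-N-VEGF cells and at -0.12 (SE 0.153) in N-VEGF cells. Its neighbours Ddc and Cobl had 39 and 61 counts in all and were not tested.

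Igf2r (chr17:12682406-12769664, minus strand) encodes the receptor that takes up IGF2 for breakdown and sorts lysosomal enzymes. It was the steadiest of the tested genes among groups, with group means of 228 ± 34.2, 222 ± 27.1, 222 ± 35.0 and 221 ± 39.6 CPM (SD, n = 3) in NLS-N-VEGF cells, first without and then with dox, and in N-VEGF cells likewise. Suffix a ran from 221 to 259 CPM with a median of 238, above the 4 libraries of suffix b at 192, 191, 188 and 176 CPM. Fitted with the groups, suffix b lay at -0.37 on the log2 scale (SE 0.0561, edgeR adjusted p = 6.2e-05), while Airn was at -0.05 (SE 0.156, edgeR adjusted p = 0.825). The other genes of the cluster, the transporters Slc22a2 and Slc22a3, had 1 and 0 counts.

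Mest (chr6:30723547-30748465, plus strand), a paternally expressed gene of the hydrolase family that is linked to growth of fat and mesoderm, was the exception in direction. It had 8 to 15 counts in the libraries of suffix a (0.503 to 0.957 CPM, median 0.728) and 19, 20, 20 and 16 counts in those of suffix b (1.36, 1.18, 1.17 and 1.07 CPM). The suffixes did not overlap, and Mest was higher in suffix b by 0.67 on the log2 scale (SE 0.221, edgeR adjusted p = 0.0204). With so few counts the call was lost under DESeq2 (adjusted p = 0.115), among libraries numbered 2 alone (0.62, edgeR adjusted p = 0.092) and without library 2 of suffix b of the NLS-N-VEGF cells without dox (0.55, edgeR adjusted p = 0.103) or the N-VEGF cells with dox (0.69, edgeR adjusted p = 0.0529). Of its exon bases 23.1% lie opposite Copg2, a coat protein gene at 55.8 to 70.9 CPM, and without strand the reads there cannot be told apart. Copg2 was at -0.04 (SE 0.0589, edgeR adjusted p = 0.643) with the suffix.

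Plagl1 was the tested gene that did not pass with the suffix, at -0.03 (SE 0.126, edgeR adjusted p = 0.845). Counted without the model, all 4 libraries of suffix b lay below all 8 of suffix a for 3 of the 7 genes (Peg3, Grb10 and Igf2r), as they did for 14.9% of all tested genes, and above for 1 (Mest), as for 13.1%. The median log2 fold change of the 7 was -0.35, against 0.01 over all tested genes. Fibroblast markers moved with the suffix too, 4 of 10 lower, among them Pdgfra at -1.32, Col3a1 at -1.22 and Fn1 at -0.55, and 3 higher, Thy1 at 0.53, S100a4 at 0.40 and Vim at 0.38. The shares over all tested genes were 23.5% lower and 22.2% higher. The summed level of the fibroblast markers was 11850 to 15030 CPM in suffix a and 12240 to 13880 CPM in suffix b. The summed level of 5 skeletal muscle markers was 0.431 to 0.691 CPM in suffix a and 0.888 to 1.74 CPM in suffix b, without overlap, with Myod1 and Myog at 0 counts, and that of the 5 immune markers was 32.4 to 40.6 and 30.7 to 34.2 CPM. The part of these changes in those of the imprinted genes was not tested.

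Other imprinted genes gave no common direction. Of 61 in the list, 32 passed the filter, and their median log2 fold change with suffix b was -0.01. Called higher were 5 and lower 5, against 22.2% and 23.5% of all tested genes. Those named by size were Ndn (2.81), Htr2a (1.21), Kcnq1 (-1.09), Rian (-0.95), Ampd3 (-0.63) and Mirg (0.50). Ndn, the Prader-Willi region gene necdin, ran from 0.0536 to 3.75 CPM. With dox 0 of the 32 were called in either population, with 1 at p under 0.05 in each. Of all tested genes 0.022% were called in NLS-N-VEGF cells and 0.0367% in N-VEGF cells. With the block 0 of the 32 were called in either population, against 0.125% and 0.11% of all tested genes. For the mean effect with the block 1, Dcn, was called lower, against 0.566% of all tested genes called in either direction.

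Genes that read or keep imprints, or that set or oxidise DNA methylation or act on chromatin, were all but 1 expressed. Of these 17 of 18 passed the filter, and Dppa3, a protector of imprints in the egg, was at 0 counts. Trim28, the corepressor that ZFP57 recruits, stood at 539 CPM, the maintenance methyltransferase Dnmt1 at 421 CPM, Ctcf at 119 CPM and Zfp57 at 41.5 CPM. With dox 0 of the 17 were called in either population, with 1 and 0 at p under 0.05. The shares called over all tested genes were 0.022% and 0.0367%. With suffix b 3 were lower, the de novo methyltransferase Dnmt3a (-0.45) and the methylcytosine oxidases Tet3 (-0.43) and Tet1 (-0.41), and 2 were higher, the Polycomb genes Eed (0.39) and Ezh2 (0.21). Over all tested genes 23.5% were called lower and 22.2% higher with suffix b.

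Most of the examined receptors and downstream genes of the IGF signal, and the Igf2bp genes, were present, although the ligand gene Igf2 had 1 count. The ligand gene Igf1 was not examined, and Insrr and Irs4 had 1 and 9 counts in all. Of 16 genes 14 passed the filter, with the receptor Igf1r at 114 to 134 CPM and the insulin receptor Insr at 28.1 to 48.1 CPM. With suffix b 9 of the 14 were lower and 0 higher by edgeR, against 23.5% lower and 22.2% higher over all tested genes. Named by size, these were Foxo1 (-0.91), Foxo3 (-0.66), Irs2 (-0.63), Irs1 (-0.58), Insr (-0.45) and Pik3ca (-0.28), while Igf1r was at 0.08 (SE 0.0488, edgeR adjusted p = 0.202). With dox 0 of the 14 were called and 0 had p under 0.05 in either population, against 0.022% and 0.0367% of all tested genes called.

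Of 11 genes of the Notch pathway that the Dlk1 protein is related to, 5 passed the filter. With suffix b the receptors Notch1 (-1.56) and Notch2 (-0.49) and the ligand Jag1 (-0.39) were lower, the Dlk1 homologue Dlk2 was higher (0.56), and the target Hes1 was at 0.31 (SE 0.184, edgeR adjusted p = 0.176). The ligand Dll1 was at 0 counts. The shares over all tested genes with suffix b were 23.5% lower and 22.2% higher. With dox 0 of the 5 were called and 0 had p under 0.05 in either population, against 0.022% and 0.0367% of all tested genes called.

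Genes with the most similar pattern over the 12 libraries, by Pearson correlation of log2 CPM among genes whose mean reached 5 CPM, were Cyp26b1 for Dlk1 (0.98), Yeats2 for Meg3 (0.97), Irs1 for Peg3 (0.99), Eif3j1 for Plagl1 (0.92), Smad3 for Grb10 (0.99) and Baz2b for Igf2r (0.99). Among the members Peg3 and Igf2r were closest (0.95) and Mest and Grb10 were farthest apart (-0.79). Libraries of the same suffix share much of this, so the values are descriptions.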

How the data were processed

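RNA-seq measured gene expression in 12 libraries. Per the study's methods and the submitters' processing notes, the authors prepared TruSeq RNA v2 libraries, trimmed the single-end reads by Trim Galore (cutadapt 1.10), mapped them to GRCm38 by TopHat2 2.1.0 (Bowtie2 2.2.6) and assigned them to genes by HTSeq 0.6.1. The table that was deposited holds raw, unnormalized counts. The strand setting and the treatment of reads on shared bases are not given in the sources used here. All value columns matched a labelled library, and total counts were 13549331 to 18982127. At 3 counts, the floor of a library was 0.161 to 0.221 CPM.

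Counts were tested with edgeR 4.0.16 (R 4.3.3). Genes were filtered with filterByExpr by group (13608 kept), scaled by TMM, fitted with 1 mean per group over all 12 libraries and tested with the quasi-likelihood F test, two-sided, with Benjamini-Hochberg adjustment within each comparison and calls at adjusted p under 0.05. The 5 comparisons were the dox effect in NLS-N-VEGF and in N-VEGF cells, the interaction of dox with population, and the populations against each other under each condition. The suffixes were compared with group in the model. Standard errors (SE) came from the F statistic. The fit was tested on simulated data with known changes. These had the smaller spread of the fit with the block and no suffix effect. They therefore do not show what the fit without the block detects in these libraries. The 10 genes and the lists of other genes were chosen with earlier results of these data known. All 10 were named. From each other list at most 6 called genes whose mean reached 1 CPM were named, by absolute log2 fold change, or the most abundant where none was called, besides neighbours in a cluster of the 10 genes and the 1 most similar gene of each. Levels of list genes, and those at 0, were named after their values were seen.

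Number and suffix together mark 3 blocks of libraries across groups. Over 12058 genes, deviations from the group means correlated at 0.319 to 0.79 in all pairs of the same number and suffix, at 0.169 to 0.602 in 12 pairs of different number within suffix a, and at -0.698 to -0.331 in 24 pairs across suffixes. The block thus carries the suffix, and these correlations do not show that the number pairs libraries within suffix a. A fit with suffix in place of the block was added after the results were seen. The biological coefficient of variation was 15.5% without and 7.86% with the block. No libraries of a group agreed within sampling noise (chi-square per degree of freedom 1.76 to 76.3). Alternatives were the block, RLE scaling, no filter, DESeq2 1.42.0, suffix a alone, libraries numbered 2 alone, and leaving out each library. Positions are 1-based GRCm38, from GENCODE M21, which held 54409 of 54446 Ensembl genes. Promoter windows are from RefSeq, and none was printed for H19 or Cdkn1c.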

Additional observations from a re-analysis of the deposited data

Results flagged for a closer look

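Among the 4 libraries of suffix b, library 2 of the N-VEGF cells with dox was flagged as low by Dixon's test at the 95% level. This held for Dlk1 (763.7 CPM, against 964 to 1010 CPM) and for Grb10 (404 CPM, against 461 to 473 CPM). The gap was 0.835 of the range for each gene, just over the critical 0.829. Among the 8 libraries of suffix a, library 1 of the N-VEGF cells without dox was far above the other 7 for Grb10 (636 CPM, against 545 to 576 CPM). Sets of 1 suffix mix the 4 groups, 14 sets were tested, and chance alone flags about 1 set in 20. Groups of 3 libraries were not tested in this way.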

How the results depend on the processing

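Of 436 log2 values of the 7 tested genes under alternatives, 397 kept their direction and their side of the threshold. RLE scaling changed none. With no filter on low counts the genes called were 53 (NLS-N-VEGF dox effect), 36 (N-VEGF dox effect), 77 (mean effect), 1 (difference), 9 (between populations with dox) and 10 (without dox), and 1 imprinted growth gene was called, Dlk1 for the mean effect. With DESeq2 9 genes were called for NLS-N-VEGF cells and 14 for the mean. With the replicate block by number and suffix 17, 15, 77 and 2 genes were called for NLS-N-VEGF cells, N-VEGF cells, the mean and the populations with dox, and the block changed no call of an imprinted growth gene. Within suffix a 109, 16, 4, 11, 5 and 135 genes were called for the NLS-N-VEGF and N-VEGF dox effects, their difference, the populations with and without dox and the mean, with Dlk1 as the 1 imprinted growth gene in NLS-N-VEGF cells and for the mean. Of 42 log2 values of the 7 genes 6 changed sign there, all within 0.069 of 0 over all libraries and within 0.10 of it in suffix a, such as the dox effect on Igf2r in N-VEGF cells (0.012). With suffix in the model in place of the block 15, 13, 73 and 2 genes were called for NLS-N-VEGF cells, N-VEGF cells, the mean and the populations with dox, no imprinted growth gene among them, and Meg3 in N-VEGF cells changed sign to -0.044.

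Leaving out 1 library gave 0 to 3 called genes for NLS-N-VEGF cells (0 without any 1 of their libraries without dox), 1 to 7 for N-VEGF cells, 5 to 9 for the mean and 4929 to 7200 for the suffix. Signs turned for values near 0. With the suffix Plagl1 ran from -0.16 to 0.11. With dox in NLS-N-VEGF cells the ranges were -0.24 to 0.036 for Peg3, -0.16 to 0.54 for Mest, -0.11 to 0.060 for Grb10 and -0.16 to 0.062 for Igf2r. In N-VEGF cells they were -0.28 to 0.64 for Meg3, -0.26 to 0.11 for Peg3, -0.38 to 0.049 for Mest, -0.26 to 0.018 for Grb10 and -0.14 to 0.13 for Igf2r. The difference of the dox effects on Dlk1 ran from -0.25 to 0.12. The causes were not tested. Depth limits Mest (8 to 20 counts a library), Cdkn1c, Igf2 and H19.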
